A study of Homo sapiens with 58 samples.

Results

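The genes described here are 10 interferon-stimulated genes of the antiviral response: IFIH1, IFIT1, IFIT3, OAS1, MX1, RSAD2, XAF1, IFI6, IFI44 and IFI44L. They were listed by name, with earlier results of these arrays known, and each was read from the probe set that carried its symbol alone and had the highest mean over all arrays. They make up 10 of 19775 genes measured, and their 18 probe sets are among 41097 with a single gene symbol.

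RNA was measured on 58 Affymetrix U133 Plus 2.0 arrays of HaCaT, an immortalized line of human keratinocytes with mutant p53 alleles, and of lines derived from it. HaCaT-p65 carried RELA, the p65 subunit of the transcription factor NF-κB. HaCaT-EGFR carried wild-type EGFR, HaCaT-HRAS carried the constitutively active HRAS-VAL12D, and HaCaT-vector was the mock line with an empty vector. In serum there were 3 arrays of HaCaT-p65, 5 of HaCaT-EGFR, 3 of HaCaT-HRAS, 3 of HaCaT-vector and 3 of HaCaT. TNF-α, the cytokine that activates NF-κB, was given at 10 ng/ml after 12 h without serum, for 4 h or 8 h in HaCaT-p65 (5 arrays) and for 4 h in HaCaT-vector (3 arrays). EGF was given at the same dose for 4 h or 8 h in HaCaT-EGFR (7 arrays) and for 4 h in HaCaT-vector (4 arrays). Serum-starved cells without a ligand were measured on 3 arrays of HaCaT-p65, 7 of HaCaT-EGFR and 4 of HaCaT-vector. Starved arrays were labelled 4 h or 8 h in HaCaT-p65 and HaCaT-EGFR and 4 h in HaCaT-vector. Another 8 arrays held gefitinib, LY294002 or U1026, inhibitors of EGFR, PI3K and MEK, with EGF or in serum. Gefitinib arrays were labelled 4 h or 8 h, as were 2 of the HaCaT-EGFR serum arrays, and LY294002 and U1026 arrays 4 h. Whether a line was 1 clone or a pool, and which promoter drove the introduced gene, was not given in the sources used here.

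Interferons are secreted by cells that sense viral nucleic acid. Type I and III interferons signal through JAK1 and TYK2 to ISGF3, a complex that holds IRF9 and binds a DNA element called the ISRE in front of its target genes. Keratinocytes carry this pathway and constitutively express interferon-κ. NF-κB and the interferon regulatory factors meet at several of these genes and at interferon genes themselves.

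Array medians lay between 4.98 and 5.24 on the log2 scale. The arrays were processed on 6 dates, and all serum arrays but 2 of HaCaT-EGFR shared one of them. The HRAS probe set averaged 9.98 in HaCaT-HRAS and 7.57 in HaCaT-vector. RELA averaged 10.24 in HaCaT-p65 and 9.97 in HaCaT-vector, a difference of 0.27 that did not pass (limma adjusted p = 0.256), while the 9 EGFR probe sets differed in both directions: 2 were higher on every HaCaT-EGFR array, by 0.98 and 1.00, 1 was lower on every array (-0.42), and the brightest differed by -0.02. Where these probe sets lie relative to the introduced sequences is not given, so a low difference checks nothing. The mean of 7 keratinocyte markers was 10.5 to 11.7 over the arrays, against 4.14 to 4.77 for 6 leukocyte markers, 4.88 to 5.68 for 7 fibroblast markers, 4.11 to 5.47 for 5 endothelial markers and 4.90 to 5.58 for 4 melanocyte markers. The 3 HaCaT arrays were less alike than those of any derived line: over all genes, centred on the serum arrays of that date, their pairwise r was -0.05 to 0.15, against 0.25 to 0.65 within HaCaT-p65, 0.44 to 0.63 within HaCaT-EGFR, 0.69 to 0.82 within HaCaT-HRAS and 0.40 to 0.55 within HaCaT-vector. HaCaT-p65 with TNF-α, replicate 3, is labelled as treated, while its entry in the study's sample sheet describes a 4 h control. It was kept with TNF-α. For the 10 genes, the tests of the TNF-α response in HaCaT-p65 and of its difference from HaCaT-vector are also given without it. All other results that use this array are given only with it. Nothing in the labels says that replicates came from separate cultures, so the p-values measure only the spread between arrays.

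The start regions of all 10 genes were in the RefSeq promoter table (GRCh38.p14), 250 bases before to 50 bases after each start. The ISRE core, taken as GAAA repeated after a gap of 2 bases of any kind and searched on both strands, was found for 8 of the 10, against 4.38% of 27305 genes and 3.57% of 35116 promoters. A κB motif, GGGA and TTTCC with 1 base of any kind between them, was searched likewise and found for 1 of the 10, IFIH1, and for 0.678% of genes. XAF1 and OAS1 had no match to the ISRE core in this window, which says only that these letters are not there. The windows below are those of IFIT1, IFIT3, MX1, RSAD2, IFI44 and IFIH1, 5′ to 3′ along the gene. The ISRE core or its reverse complement is in capitals. Windows of OAS1, IFI6 and IFI44L are not shown. RSAD2, MX1, IFI44 and IFIT3 have several listed starts. The windows lie before the second start of RSAD2, the third of MX1 and the first of IFI44 and of IFIT3. XAF1 is shown for contrast by the bases just before the first of its starts.
IFIT1, chr10:89392500-89392549, plus strand: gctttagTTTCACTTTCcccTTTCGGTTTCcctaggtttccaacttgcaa
IFIT3, chr10:89327855-89327904, plus strand: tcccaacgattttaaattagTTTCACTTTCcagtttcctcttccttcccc
MX1, chr21:41431834-41431883, plus strand: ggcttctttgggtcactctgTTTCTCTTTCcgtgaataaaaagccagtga
RSAD2, chr2:6877612-6877661, plus strand: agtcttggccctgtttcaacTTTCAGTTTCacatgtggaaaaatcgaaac
IFI44, chr1:78649751-78649788, plus strand: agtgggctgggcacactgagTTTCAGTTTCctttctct
IFIH1, chr2:162318685-162318725, minus strand: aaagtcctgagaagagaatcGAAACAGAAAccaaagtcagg
XAF1, chr17:6755996-6756045, plus strand: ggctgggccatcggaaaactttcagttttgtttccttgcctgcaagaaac

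IFIT1 held a pair of such elements within these bases. RSAD2 and IFI44 shared the same 10 letters, as did IFIT3 and the first of the IFIT1 elements.

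Over the 58 arrays the genes spanned very different ranges. RSAD2 had the widest, 6.55 to 12.61 on the log2 scale, followed by IFI44L at 4.15 to 8.56. MX1 ran from 6.25 to 9.94, IFIT3 from 8.62 to 12.33, IFIT1 from 7.48 to 11.09, XAF1 from 5.94 to 9.53 and IFI44 from 6.65 to 10.04. OAS1 (7.32 to 10.08), IFIH1 (7.79 to 9.92) and IFI6 (5.42 to 7.51) varied least. As a description over these arrays, which share lines, dates and treatments, the pairwise Pearson r among the 10 was 0.16 to 0.90 in 45 pairs, with a median of 0.60. The genes outside the 10 whose profile was most like the mean of the 10, each centred, were PARP9 and ISG15 (r = 0.86 each), HERC6 and IRF9 (0.84 each), NMI (0.84), RIGI (0.83), PARP14 (0.82), OASL (0.80), DDX60 (0.80) and IFIT2 (0.79) over the 58 arrays.

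In serum, HaCaT-p65 had higher levels of 5 of the 10 genes than HaCaT-vector and a lower level of RSAD2. These were XAF1, MX1, IFI44, OAS1 and IFIH1, with increases of 1.74-fold to 4.05-fold. Over all genes 3.99% passed as higher and 3.19% as lower in this comparison (limma, Benjamini-Hochberg adjusted p under 0.05). The median change of the 10 was 0.92, and that of all genes was near 0. The comparison asks how the line given p65 differs from the mock line in serum.

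IFIH1 encodes MDA5, a cytosolic sensor of long double-stranded RNA. It read 9.17, 9.19 and 9.39 on the HaCaT-p65 arrays, against 8.52, 8.31 and 8.52 on the HaCaT-vector arrays. Every HaCaT-p65 array was above every HaCaT-vector array, and the log2 difference was 0.80 ± 0.22 (SE, limma adjusted p = 0.0125).

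OAS1 makes 2′-5′-linked oligoadenylate, the signal that switches on RNase L. It read 8.79, 9.27 and 9.53 in HaCaT-p65, against 8.07, 8.27 and 8.11 in HaCaT-vector. The groups did not overlap, with a log2 difference of 1.05 ± 0.27 (SE, limma adjusted p = 0.00995). IFIT1 binds viral RNA whose cap lacks the host's methyl marks, and IFIT3 stabilizes it. IFIT1 read 8.29, 9.03 and 9.21 in HaCaT-p65 and 8.71, 9.27 and 9.19 in HaCaT-vector, and IFIT3 read 9.98, 10.30 and 10.82 in HaCaT-p65 and 9.92, 10.34 and 10.31 in HaCaT-vector. The arrays of the lines overlapped for both genes. The log2 differences were -0.21 for IFIT1 (95% interval -0.84 to 0.41) and 0.17 for IFIT3 (95% interval -0.48 to 0.83).

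MX1 is a dynamin-like GTPase that blocks viral nucleocapsids. It read 8.29, 8.69 and 9.02 in HaCaT-p65, against 7.18, 7.16 and 7.48 in HaCaT-vector, with a log2 difference of 1.40 ± 0.36 (SE, limma adjusted p = 0.0079). All HaCaT-p65 arrays were the higher ones. RSAD2 encodes viperin, a radical SAM enzyme that makes a chain-terminating nucleotide. It went the other way, with 7.67, 7.39 and 7.88 in HaCaT-p65 against 8.56, 8.72 and 8.90 in HaCaT-vector, a log2 difference of -1.08 ± 0.29 (SE, limma adjusted p = 0.0114). Every HaCaT-p65 array was below every HaCaT-vector array.

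CMPK2, the nucleotide kinase that supplies viperin with its substrate, is the neighbour of RSAD2 on chromosome 2. It read 3.70, 4.39 and 4.66 in HaCaT-p65, against 8.38, 8.53 and 8.50 in HaCaT-vector. The log2 difference of CMPK2 was -4.22 ± 0.50 (SE, limma adjusted p = 6.12e-08), and it was the only one of 34 other interferon-stimulated genes to pass as lower. HaCaT replicate 2 also read 4.18 for CMPK2, while HaCaT replicates 1 and 3 read 8.26 and 8.06.

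XAF1, an interferon-induced antagonist of the caspase inhibitor XIAP, had the largest increase of the 10. It read 8.19, 8.61 and 8.78 in HaCaT-p65, against 6.25, 6.75 and 6.52 in HaCaT-vector, a log2 difference of 2.02 ± 0.42 (SE, limma adjusted p = 0.000871). The lowest HaCaT-p65 array was well above the highest HaCaT-vector array. IFI6, a mitochondrial and endoplasmic reticulum protein, read 6.80, 6.69 and 6.33 in HaCaT-p65 and 6.59, 6.40 and 6.36 in HaCaT-vector. These arrays overlapped, and the log2 difference was 0.15 (95% interval -0.38 to 0.69).

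IFI44 and its neighbour IFI44L on chromosome 1 are interferon-induced genes with less defined functions. IFI44 read 9.17, 9.38 and 9.40 in HaCaT-p65, against 7.86, 7.81 and 8.09 in HaCaT-vector, a log2 difference of 1.40 ± 0.38 (SE, limma adjusted p = 0.0149). IFI44L read 5.62, 6.47 and 6.80 in HaCaT-p65, against 4.80, 5.17 and 4.79 in HaCaT-vector. Neither pair of groups overlapped, but the IFI44L difference of 1.38 ± 0.59 did not pass (limma adjusted p = 0.198). In all, 6 of the 10 genes were higher and 1 lower with no overlap of arrays, beside 12.1% and 10.6% of all genes.

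Only XAF1 passed whichever array was left out. Without HaCaT-p65 replicate 3 the number that passed was 2 in place of 6: MX1 (1.22, limma adjusted p = 0.0708), OAS1 (0.88, 0.0969), IFIH1 (0.73, 0.0773) and IFI44 (1.36, 0.063) no longer passed. IFI44 was also lost without HaCaT-p65 replicate 2 (0.0549) or HaCaT-vector replicate 1 (0.0556) or 2 (0.0608), IFIH1 without HaCaT-vector replicate 2 (0.0726), and RSAD2 without HaCaT-p65 replicate 2 (0.0798) or HaCaT-vector replicate 3 (0.0647). None of these changes turned direction.

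**Figure D1:**
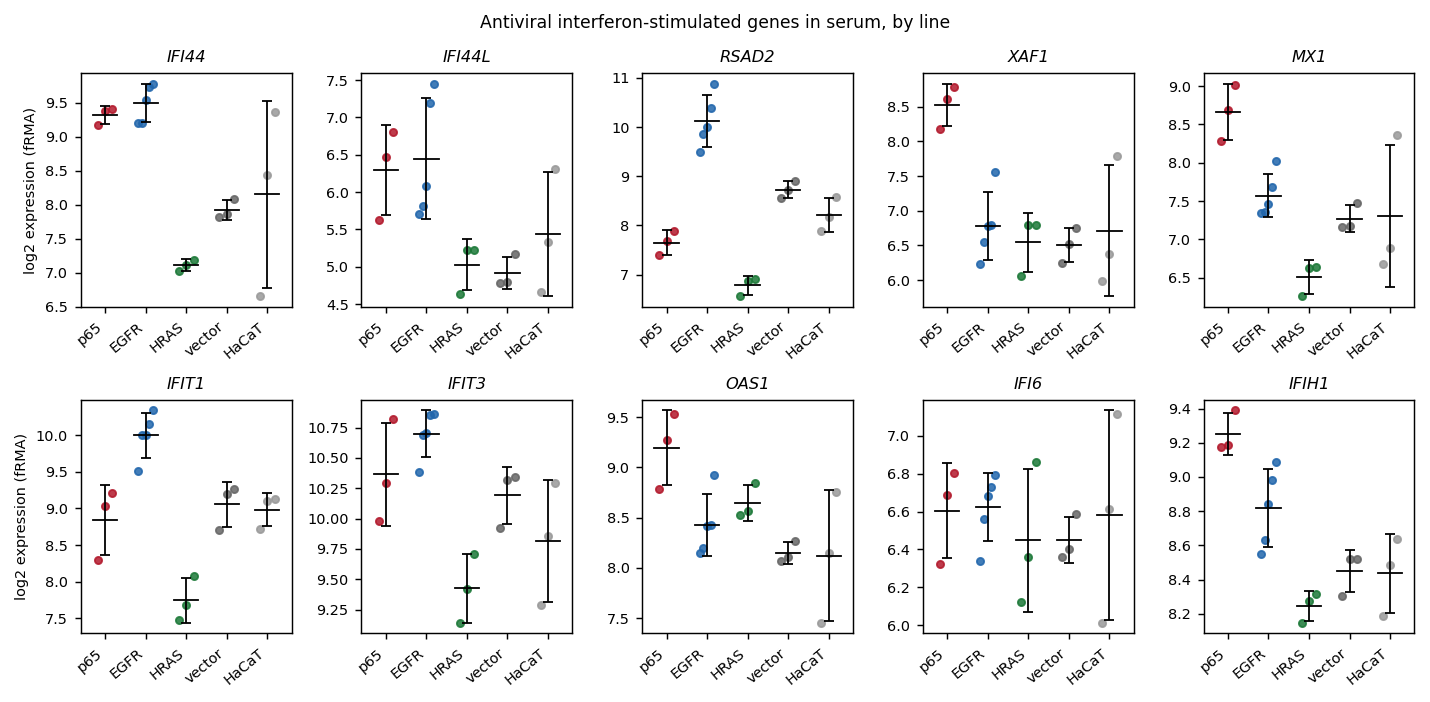
Levels of the 10 genes in serum on the deposited log2 scale, 1 panel per gene. Each point is an array, the lines stand from left to right as HaCaT-p65, HaCaT-EGFR, HaCaT-HRAS, HaCaT-vector and HaCaT, and the horizontal line and bar mark the mean and the SD. XAF1 is highest in HaCaT-p65 (8.19 to 8.78), RSAD2 in HaCaT-EGFR (9.49 to 10.88), and the HaCaT arrays spread widely for IFI44 (6.65 to 9.36).

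Of 34 other interferon-stimulated genes 8 passed as higher in HaCaT-p65 and 1 as lower, while 24 differences were positive and 10 negative, with a median of 0.32. The highest changes were those of LAMP3 (2.03), a lysosomal membrane protein, MX2 (1.72), the MX1 paralog next to it on chromosome 21, IFI35 (0.93), PARP14 (0.90) and OAS3 (0.87), a longer oligoadenylate synthetase beside OAS1. Among 9 interferon ligands only IFNK, the keratinocyte interferon, was higher, with 8.92, 9.40 and 9.75 in HaCaT-p65 against 7.92, 7.89 and 7.60 in HaCaT-vector. Every HaCaT-p65 array stood above the HaCaT-vector arrays, and the IFNK difference was 1.55 ± 0.40 (SE, limma adjusted p = 0.00891).

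IRF9, the DNA-binding subunit of ISGF3, was the 1 of 4 kinases and ISGF3 subunits to pass. It read 7.90, 8.42 and 8.79 in HaCaT-p65 against 7.24, 7.17 and 7.18 in HaCaT-vector, a difference of 1.17 ± 0.27 (SE, limma adjusted p = 0.00306). Of 5 interferon regulatory factors IRF1 (0.80) and IRF5 (1.01) were higher, of 6 receptors IFNGR2 (0.63), a chain of the interferon-γ receptor, and of 6 negative regulators PIAS1 (0.37). None of 10 nucleic acid sensors and adaptors passed. The differences were positive for all 4 kinases and ISGF3 subunits, all 5 regulatory factors and all 6 receptors, whether or not they passed. For reference, 7 of 15 NF-κB target genes were higher in HaCaT-p65 and none was lower, beside 3.99% of all genes higher. The count was not particular to this line. In HaCaT-HRAS against HaCaT-vector 7 of the 15 were higher too and none lower, beside 9.57% of all genes higher. In HaCaT-EGFR 1 was higher and none lower, beside 3.97%. Of the cell type markers MITF (-0.69) alone passed in this comparison, as lower. The lists were drawn up with earlier results of these data known.

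HaCaT-EGFR in serum differed from HaCaT-vector in another set of these genes: RSAD2, IFI44 and IFIT1 were higher by 1.92-fold to 2.97-fold, and none was lower. Over all genes 3.97% were higher and 3.9% lower by the same test. RSAD2 read 9.49, 10.88, 10.00, 9.85 and 10.39 in HaCaT-EGFR, against 8.56, 8.72 and 8.90 in HaCaT-vector. Every HaCaT-EGFR array was higher, and the log2 difference was 1.40 ± 0.29 (SE, limma adjusted p = 0.000678). The authors' correction for date gave the last 2 HaCaT-EGFR arrays, of another date, the same mean as the first 3 (10.12). The difference from HaCaT-vector therefore rests on the first 3, here and for the other genes. IFI44 read 9.20, 9.73, 9.53, 9.20 and 9.77 in HaCaT-EGFR, against 7.86, 7.81 and 8.09 in HaCaT-vector, a difference of 1.57 ± 0.38 (SE, limma adjusted p = 0.00476).

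IFIT1 read 9.51, 10.15, 10.34, 10.00 and 9.99 in HaCaT-EGFR, against 8.71, 9.27 and 9.19 in HaCaT-vector. These did not overlap either, but the IFIT1 difference of 0.94 ± 0.31 lay at the threshold (SE, limma adjusted p = 0.0496) and passed only without HaCaT-EGFR replicate 1 of the date shared with HaCaT-vector when arrays were left out in turn. Its adjusted p was 0.263 without HaCaT-vector replicate 1, 0.26 without HaCaT-EGFR replicate 3, 0.174 without HaCaT-EGFR replicate 2, 0.0815 and 0.065 without HaCaT-vector replicates 3 and 2, and 0.0543 without either array of the other date. IFI44L (1.53), IFIT3 (0.51) and IFIH1 (0.37) were also higher on every HaCaT-EGFR array without passing, so 6 of 10 did not overlap, beside 11% of all genes in that direction. Both shares count the 2 HaCaT-EGFR arrays whose mean the correction for date had set. XAF1, MX1, OAS1 and IFI6 overlapped, with differences of 0.17 to 0.30. With the serum arrays of 1 date alone, a setting chosen after seeing the data, RSAD2 passed (limma adjusted p = 0.00861) and IFI44 (1.57, 0.0618) and IFIT1 (0.94, 0.0557) did not. Among the markers of cell type, KRT14 (-0.72) and MITF (-0.94) were lower in HaCaT-EGFR and COL3A1 (2.24) was higher. The part of these shifts in the results was not tested.

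Some other genes of the pathway passed too, in both directions. In HaCaT-EGFR 1 of 34 other interferon-stimulated genes was higher, HERC5 (1.73), the ligase that attaches ISG15. UBE2L6 (-0.54) and SAMD9L (-0.87) were lower. These counts were near the shares of all genes, 3.97% higher and 3.9% lower. IFNK read 4.90, 4.95, 4.30, 4.13 and 5.31 in HaCaT-EGFR against 7.92, 7.89 and 7.60 in HaCaT-vector, a difference of -3.09 ± 0.40 (SE, limma adjusted p = 3.83e-07). USP18, the protease that removes ISG15 and dampens the type I receptor, was higher by 1.13, as were PTPN1 (0.79) and IRF3 (0.48).

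HaCaT-HRAS in serum had lower RSAD2 and IFIT1 than HaCaT-vector, by 3.86-fold and 2.48-fold, and no member passed as higher. Of all genes 8.63% were lower and 9.57% higher. RSAD2 read 6.55, 6.92 and 6.86 in HaCaT-HRAS, against 8.56, 8.72 and 8.90 in HaCaT-vector, a log2 difference of -1.95 ± 0.29 (SE, limma adjusted p = 1.13e-06). IFIT1 read 7.48, 7.68 and 8.08 in HaCaT-HRAS, against 8.71, 9.27 and 9.19 in HaCaT-vector, a difference of -1.31 ± 0.31 (SE, limma adjusted p = 0.00139). All HaCaT-HRAS arrays lay below all HaCaT-vector arrays for both genes, and both calls held whichever array was left out. Cell type markers moved with this line too: the mean of the 7 keratinocyte markers was 10.5 to 10.8 over the HaCaT-HRAS arrays and 11.2 to 11.5 over the HaCaT-vector arrays, and KRT14 (-2.33), DSP (-1.06) and SFN (-0.89) passed as lower. Of 5 endothelial markers CDH5 (4.29) was higher, and of 6 leukocyte markers LYZ (1.89). The part of these shifts in the results was not tested.

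IFI44 (-0.81), MX1 (-0.77) and IFIT3 (-0.77) were also lower on every HaCaT-HRAS array without passing, and OAS1 (0.50) was higher on every one. That made 5 of 10 lower and 1 of 10 higher without overlap, beside 18.6% and 16.9% of all genes. XAF1 (0.04), IFI44L (0.11), IFI6 (-0.00) and IFIH1 (-0.20) overlapped. The number that passed was 6 both with the arrays of these lines fitted alone and with array weights. Among 34 other interferon-stimulated genes 9 were lower, beside 8.63% of all genes. They were led by SAMD9L (-1.95), DDX60L (-1.82), EPSTI1 (-1.77), SAMD9 (-1.41) and IFIT2 (-1.40), the neighbour of IFIT3. LAMP3 (3.36) and PLSCR1 (0.53) were higher, beside 9.57% of all genes. IFNK read 4.44, 4.49 and 4.46 in HaCaT-HRAS, a difference of -3.34 ± 0.40 from HaCaT-vector (SE, limma adjusted p = 1.6e-08).

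HaCaT-vector, the mock line, was also set against its parent HaCaT. None of the 10 passed (limma), 0 had an unadjusted p under 0.05, and the differences ran from -0.52 to 0.51, beside 1.23% of all genes called higher and 1.64% lower. The parental arrays were far apart: IFI44 read 8.44, 9.36 and 6.65 in HaCaT, XAF1 6.37, 7.78 and 5.98, and MX1 6.67, 8.37 and 6.88. Replicate 2 was the highest HaCaT array for all 10 genes but RSAD2. Its IFNK was 7.91 as well, while replicates 1 and 3 read 4.58 and 5.42. Without HaCaT replicate 2, 9 of the 10 differences were positive with a median of 0.34, and without replicate 3, 8 were negative with a median of -0.28. None passed in either case.

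The lines were also set against each other. HaCaT-p65 exceeded HaCaT-HRAS in 7 of the 10 genes and lay below it in none, beside 10.4% of all genes in each direction: IFI44 (2.21), MX1 (2.16), XAF1 (1.98), IFIT1 (1.10), IFIH1 (1.01), IFIT3 (0.94) and RSAD2 (0.87). HaCaT-HRAS was below HaCaT-EGFR in 5 and above it in none, beside 9.47% and 9.89%: RSAD2 (-3.34), IFI44 (-2.38), IFIT1 (-2.25), IFIT3 (-1.28) and MX1 (-1.07). HaCaT-p65 had more XAF1 (1.74) and MX1 (1.10) than HaCaT-EGFR and less RSAD2 (-2.47) and IFIT1 (-1.16), 2 in each direction beside 5.24% and 4.54%.

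Against the HaCaT parent, HaCaT-p65 was higher in IFIH1 (0.81), MX1 (1.36), OAS1 (1.08) and XAF1 (1.81) and lower in none, beside 2.83% and 3.12% of all genes. HaCaT-EGFR was higher in IFI44 (1.34) and RSAD2 (1.91), beside 1.6% higher and 2.28% lower, and HaCaT-HRAS was lower in IFIT1 (-1.24) and RSAD2 (-1.44), beside 8.83% lower and 8.85% higher. These pairs share arrays with the comparisons above. RSAD2 separated the lines most widely, averaging 7.65 ± 0.25 in HaCaT-p65, 10.12 ± 0.53 in HaCaT-EGFR, 6.78 ± 0.20 in HaCaT-HRAS, 8.73 ± 0.17 in HaCaT-vector and 8.21 ± 0.34 in HaCaT (SD). By mean the order from the top was HaCaT-EGFR, HaCaT-vector, HaCaT, HaCaT-p65 and HaCaT-HRAS. Of the neighbours in that order, HaCaT-vector and HaCaT overlapped and did not differ beyond their spread (0.51, limma adjusted p = 0.572), and HaCaT-p65 lay below HaCaT on every array without passing (-0.56, limma adjusted p = 0.329).

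**Figure D2:**
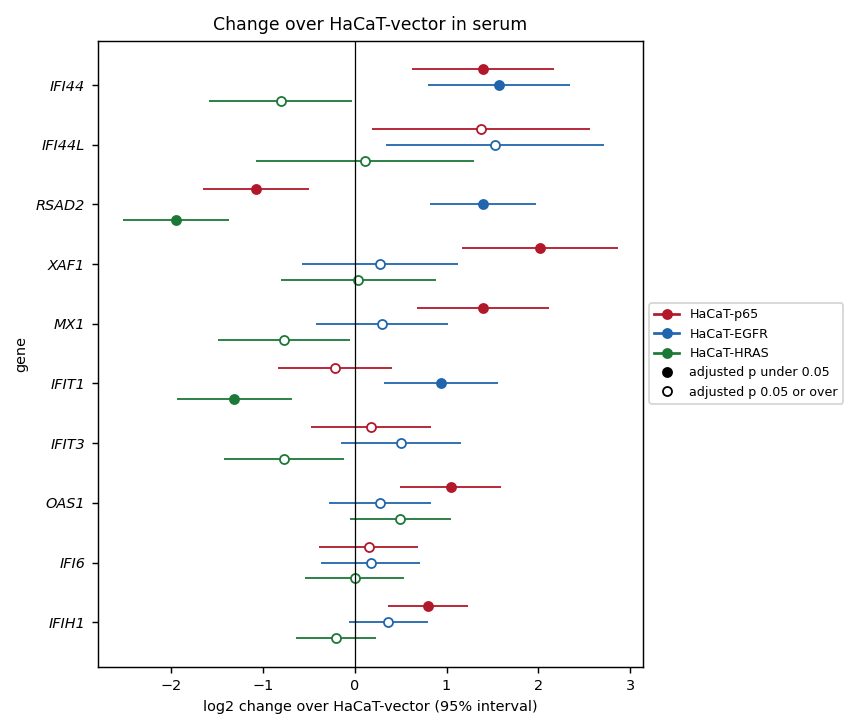
Differences between lines in serum for the 10 genes, as log2 changes with 95% intervals from limma. Filled points passed at an adjusted p under 0.05. RSAD2 lies on opposite sides of 0 in HaCaT-EGFR (1.40) and in HaCaT-p65 (-1.08) and HaCaT-HRAS (-1.95), while XAF1 differs by 2.02 in HaCaT-p65, 0.28 in HaCaT-EGFR and 0.04 in HaCaT-HRAS.

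TNF-α was followed by higher levels of these genes in HaCaT-vector. Of the 10 genes 6 passed, RSAD2, XAF1, MX1, IFIT3, OAS1 and IFIH1, with increases of 2.07-fold to 3.79-fold, beside 0.885% of all genes called higher and 0.0202% lower. All 10 were higher on every array with TNF-α than on any starved array, beside 8.95% of all genes. The median change was 1.34, beside -0.01 for all genes. The comparison asks how the mock line answers the cytokine that activates NF-κB.

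RSAD2 read 12.24, 11.78 and 12.61 with TNF-α, against 10.52, 10.41, 10.37 and 10.64 in starved HaCaT-vector, a log2 change of 1.73 ± 0.29 (SE, limma adjusted p = 0.000237). MX1 read 9.94, 9.35 and 9.85 with TNF-α, against 7.79, 7.94, 7.83 and 8.08 starved, a change of 1.81 ± 0.36 (limma adjusted p = 0.00252). XAF1 read 9.53, 8.97 and 9.45 with TNF-α, against 7.33, 7.45, 7.31 and 7.49 starved, a change of 1.92 ± 0.42 (limma adjusted p = 0.00842). The starved arrays lay close together for these genes, and replicate 2 was the lowest of the TNF-α arrays for all of them.

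OAS1 read 9.98, 9.81 and 10.08 with TNF-α, against 8.32, 8.41, 8.58 and 8.47 starved, a change of 1.51 ± 0.27 (SE, limma adjusted p = 0.000829). IFIT3 read 11.85, 11.89 and 12.33 with TNF-α, against 10.49, 10.40, 10.60 and 10.23 starved, a change of 1.59 ± 0.32 (limma adjusted p = 0.00357). IFIH1 read 9.73, 9.70 and 9.92 with TNF-α, against 8.74, 8.78, 8.76 and 8.65 starved, a change of 1.05 ± 0.22 (limma adjusted p = 0.00403). The gaps between treated and starved arrays were wide for all of these.

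The other 4 genes were higher on each TNF-α array without passing. IFIT1 changed by 1.08 (limma adjusted p = 0.0964), IFI6 by 1.01 (0.0543), IFI44L by 1.18 (0.797) and IFI44 by 0.84 (0.703). IFI44 was the tightest of them, at 9.47, 9.39 and 9.57 with TNF-α and 8.65, 8.67, 8.65 and 8.58 starved. Within each of the 2 dates that held treated and starved arrays, all 10 changes were positive, at 1.55 and 1.80 for RSAD2, 1.52 and 2.13 for MX1 and 1.72 and 2.21 for XAF1.

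Without HaCaT-vector starved replicate 3, the only starved array of its date, 3 genes passed in place of 6, and XAF1 (limma adjusted p = 0.065), IFIT3 (0.0979) and IFIH1 (0.0852) were lost. Without TNF-α replicate 1, the only treated array of its date, 3 passed, and XAF1 (0.347), MX1 (0.198) and IFIH1 (0.0785) were lost. Without TNF-α replicate 2 IFI6 passed as well (0.0261). RSAD2 and OAS1 passed each time, and no direction turned.

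Of 34 other interferon-stimulated genes 15 were higher with TNF-α in HaCaT-vector and none was lower, with a median change of 0.72. CMPK2 changed by 2.20 ± 0.50 (SE, limma adjusted p = 0.0126), ISG15, the ubiquitin-like modifier, by 1.18 (0.0236) and IFIT2 by 1.10 (0.0409). None of 9 interferon ligands passed, IFNK included (0.73, limma adjusted p = 0.878), and none of 4 kinases and ISGF3 subunits did, IRF9 being the nearest (0.95, 0.0986). IRF1, an interferon regulatory factor and a direct target of NF-κB, rose by 1.42 (limma adjusted p = 7.79e-06). RIGI, the sensor related to MDA5, rose by 1.36, TICAM1 by 0.48, and the receptor chains IFNAR2, IFNGR2 and IFNGR1 by 1.03, 0.98 and 0.68. Of 15 NF-κB targets 13 rose.

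**Figure D3:**
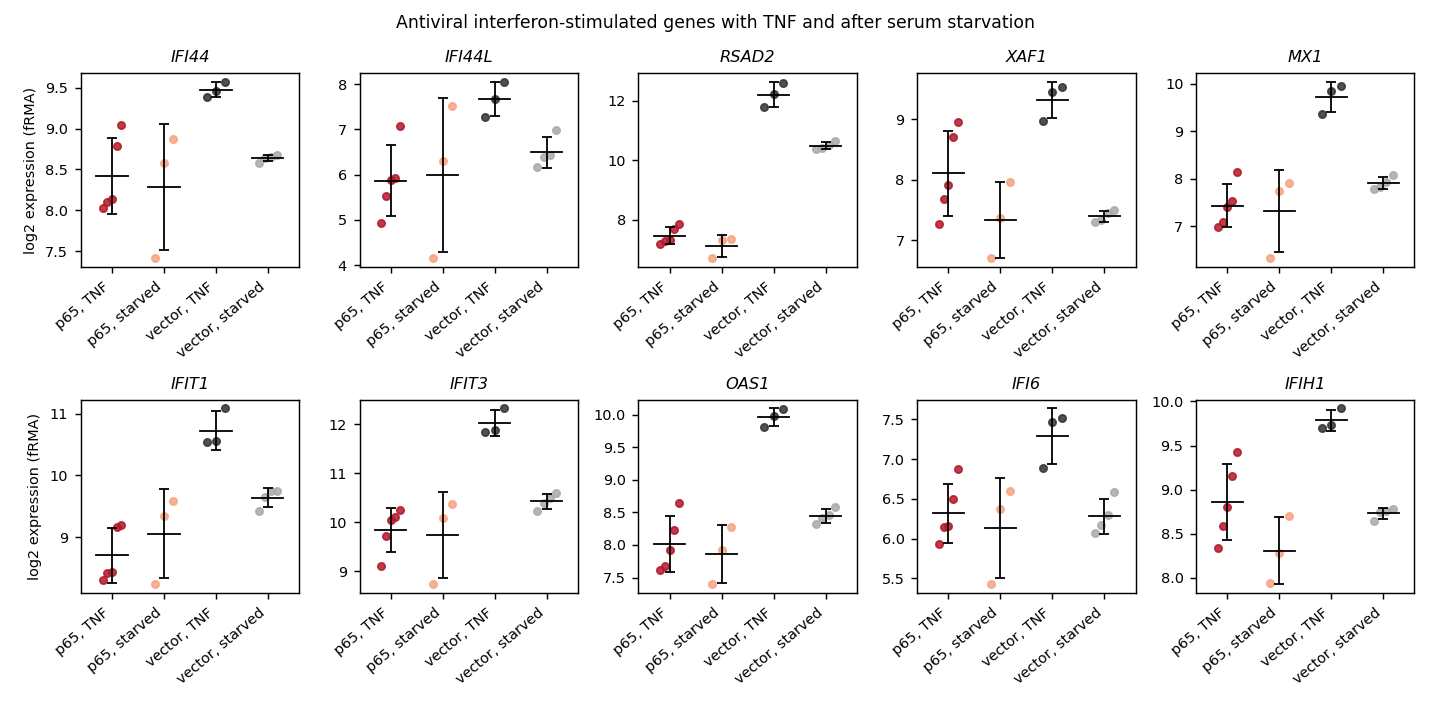
Levels of the 10 genes with TNF-α and starved in HaCaT-p65 and HaCaT-vector on the deposited log2 scale, 1 panel per gene and 1 point per array, with the mean and SD as a line and bar. In HaCaT-vector the treated arrays clear the starved arrays for each gene, while in HaCaT-p65 they overlap for each gene.

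In HaCaT-p65 none of the 10 genes passed with TNF-α (limma), and 1 had an unadjusted p under 0.05, beside 0.698% of all genes called higher and 1.34% lower. That gene was IFIH1, with 9.16, 9.42, 8.59, 8.80 and, for the doubtful replicate 3, 8.34 with TNF-α against 8.29, 8.70 and 7.94 starved, a log2 change of 0.55 ± 0.20 (SE, limma adjusted p = 0.118). XAF1 read 8.70, 8.95, 7.92, 7.68 and 7.27 with TNF-α against 7.36, 7.96 and 6.70 starved, a change of 0.76 ± 0.38 (limma adjusted p = 0.289). In both, the arrays of the 2 dates stood apart, and treated and starved arrays overlapped.

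RSAD2 read 7.70, 7.85, 7.30, 7.27 and 7.19 with TNF-α against 7.31, 7.36 and 6.71 starved HaCaT-p65, a change of 0.33 (95% interval -0.19 to 0.86). MX1 read 7.40, 8.13, 7.54, 6.98 and 7.10 with TNF-α against 7.73, 7.90 and 6.33 starved, a change of 0.11 (95% interval -0.54 to 0.76). IFIT3 changed by 0.11 (95% interval -0.48 to 0.71), OAS1 by 0.16 (-0.35 to 0.66) and IFIT1 by -0.35 (-0.92 to 0.22). No member was free of overlap, and the median change was 0.14, beside -0.05 for all genes.

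Starved HaCaT-p65 replicate 2 had the lowest value of the 3 starved arrays for all 10 genes, and it was the only starved array of its date. Changes therefore differed between dates: MX1 changed by -0.05 on one date and 0.88 on the other, IFI44L by -0.60 and 1.43, and IFIT3 by -0.06 and 0.90. XAF1 was higher on both, by 1.17 and 0.92, as were RSAD2 by 0.43 and 0.55 and IFIH1 by 0.80 and 0.64. Without that array, 7 of the 10 changes were negative with a median of -0.39, and none passed. Without TNF-α replicate 3, the array described as a control in the sample sheet, IFIH1 passed (0.67, limma adjusted p = 0.0388) and no other member did. In the same HaCaT-p65 arrays 7 of 15 NF-κB targets rose, as did IFNGR2 (0.82), IFNGR1 (0.69) and IFNAR2 (0.73). None of the 34 other interferon-stimulated genes passed, and their median change was 0.15.

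The response in HaCaT-p65 minus that in HaCaT-vector, fitted as an interaction, was negative for all 10 genes. None passed (limma, adjusted p 0.336 to 0.781), 7 had an unadjusted p under 0.05, and over all genes 0.0101% passed as lower and 0 as higher. The median was -1.33, beside -0.05 for all genes. The interaction was -1.70 ± 0.48 for MX1 (95% interval -2.67 to -0.73), -1.48 ± 0.44 for IFIT3 (-2.36 to -0.60), -1.43 ± 0.42 for IFIT1 (-2.27 to -0.59), -1.39 ± 0.39 for RSAD2 (-2.17 to -0.61) and -1.36 ± 0.37 for OAS1 (-2.10 to -0.61). These intervals are not adjusted for the number of genes. XAF1 (-1.16) and IFI6 (-0.82) had intervals that ended closer to 0, and those of IFI44 (-0.71), IFI44L (-1.30) and IFIH1 (-0.50) held 0.

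With array weights 2 of the 10 passed. Without starved HaCaT-p65 replicate 2, 3 passed: MX1 (-2.38, limma adjusted p = 0.0276), IFIT1 (-1.99, 0.0439) and IFIT3 (-2.17, 0.019). Without TNF-α replicate 3 of HaCaT-p65 none did. HaCaT-p65 and HaCaT-vector arrays of this experiment share no date. Their times also differ, with 4 h and 8 h arrays pooled in HaCaT-p65 and 4 h arrays alone in HaCaT-vector. For CMPK2 the interaction was -1.46, for IFIT2 -1.10 and for ISG15 -0.96, none of which passed, and the median of the 34 other interferon-stimulated genes was -0.63. A single NF-κB target passed, the chemokine CCL20 (-2.40).

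**Figure D4:**
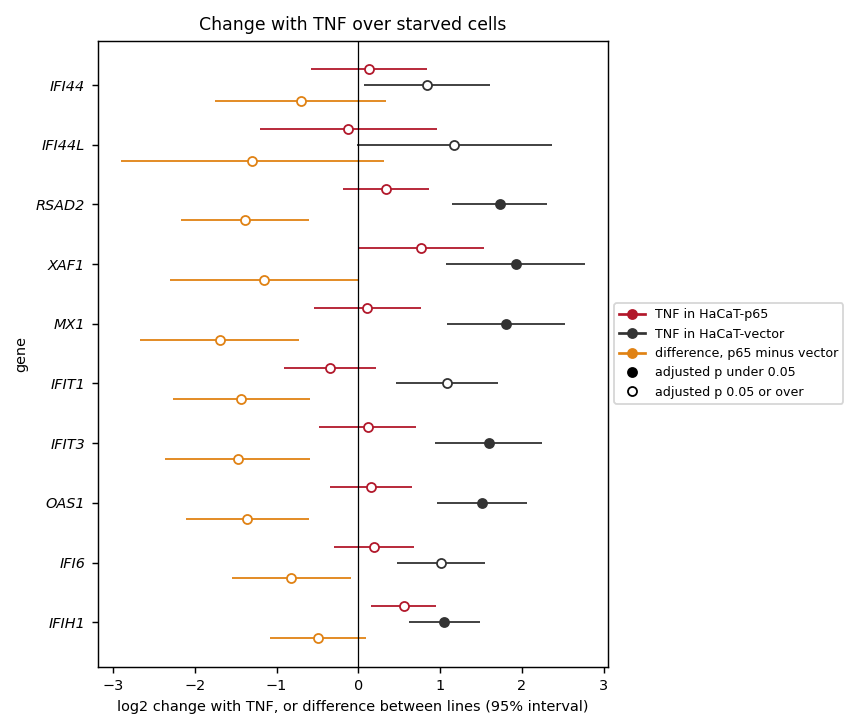
Log2 changes with TNF-α in HaCaT-p65 and in HaCaT-vector and their difference, with 95% intervals from limma. Filled points passed at an adjusted p under 0.05. All 10 changes in HaCaT-vector are above 0 (0.84 to 1.92), those in HaCaT-p65 lie between -0.35 and 0.76, and all 10 differences are below 0.

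Starved HaCaT-p65 cells had less RSAD2 than starved HaCaT-vector cells. The array values given above for RSAD2 do not overlap, and the log2 difference was -3.35 ± 0.39 (SE, limma adjusted p = 1.81e-07), 10.2-fold. No other member passed, beside 2.96% of all genes called lower and 2.34% higher, though all 10 differences were negative with a median of -0.54. Without starved HaCaT-p65 replicate 2 their signs split evenly, 5 and 5, and RSAD2 still passed. In serum XAF1, MX1, OAS1, IFI44 and IFIH1 had been higher in HaCaT-p65, and starved they differed by -0.05, -0.59, -0.58, -0.35 and -0.43. CMPK2 was lower here too, by 4.49 log2 units (-4.49 ± 0.69, limma adjusted p = 2.43e-05), as were HERC5 (-2.09) and TRIM22 (-1.48).

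With TNF-α, all 10 genes were lower on every HaCaT-p65 array than on any HaCaT-vector array, beside 18.8% of all genes. RSAD2 (-4.75 ± 0.43, limma adjusted p = 5.14e-10), MX1 (-2.29, 0.00559), IFIT3 (-2.18, 0.00351), IFIT1 (-2.02, 0.00457) and OAS1 (-1.94, 0.00205) passed, beside 4.22% of all genes called lower and 2.26% higher. Of the 34 other interferon-stimulated genes 11 were lower, CMPK2 by the widest margin (-5.95). These line differences rest on date terms that only HaCaT-EGFR arrays and a date shared by HaCaT-EGFR and HaCaT-vector connect, so line and date can be told apart only through that model.

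EGF was followed by lower IFIT1 in HaCaT-EGFR, the only member to pass, beside 4.93% of all genes called lower and 3.88% higher. IFIT1 lay at 7.87, 8.49 and 9.35 with EGF (lowest, median and highest of 7 arrays), against 8.78, 9.30 and 9.79 starved. The arrays overlapped across dates, and the log2 change was -0.72 ± 0.20 (SE, limma adjusted p = 0.0169). IFIT3 changed by -0.60 (0.0701) and 9 of the 10 changes were negative. IFIT2, beside IFIT3 on chromosome 10, fell by 0.75.

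In HaCaT-vector IFIT1 read 8.90, 8.93, 8.95 and 8.97 with EGF, against 9.74, 9.65, 9.76 and 9.42 starved. The groups did not overlap, but the IFIT1 change of -0.71 ± 0.27 did not pass (limma adjusted p = 0.301). None of the 10 passed, beside 0.617% of all genes called higher and 0.389% lower, and 2 had an unadjusted p under 0.05. IFIT1, IFIT3 (-0.63), RSAD2 (-0.51), IFI44 (-0.43) and IFIH1 (-0.31) were lower without overlap, 5 of 10 beside 12.8% of all genes. The difference between the lines in the EGF response did not pass for any member (limma, 0 with an unadjusted p under 0.05) or for any other gene, and lay between -0.43 and 0.36. Times differ here too, with 4 h and 8 h arrays pooled in HaCaT-EGFR and 4 h arrays alone in HaCaT-vector.

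The inhibitors U1026 and LY294002 were each on 1 array per line, so their tests assume that this array varies as the arrays of the other groups do. These arrays were all at 4 h, while EGF alone in HaCaT-EGFR pooled 4 h and 8 h arrays. With EGF and the MEK inhibitor U1026, IFIT1 read 9.64 in HaCaT-EGFR and 10.06 in HaCaT-vector, 1.11 and 1.12 above EGF alone. IFIT3 read 10.56 in HaCaT-EGFR and 11.05 in HaCaT-vector, in both lines 1.25 above EGF alone. All 10 differences were positive in both lines, with a median of 0.34 in HaCaT-EGFR and 0.35 in HaCaT-vector, beside 0.00 and 0.01 for all genes. No member passed (limma), with an unadjusted p under 0.05 for 4 in HaCaT-EGFR and 2 in HaCaT-vector. Over all genes 0.784% were higher and 0.981% lower in HaCaT-EGFR, and 0.0303% higher and 0.0607% lower in HaCaT-vector. IFIT2 did pass in HaCaT-EGFR, with a difference of 1.70.

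With LY294002 and EGF the members differed from EGF alone by -0.42 to 0.08 in HaCaT-EGFR and by -0.53 to 0.26 in HaCaT-vector. None passed and 0 had an unadjusted p under 0.05 in either line (limma), beside 0.172% of all genes higher and 0.187% lower in HaCaT-EGFR and 0.00506% higher and 0.0101% lower in HaCaT-vector. Gefitinib was given to HaCaT-EGFR on 2 arrays with EGF, where the members differed by -0.07 to 0.76 from EGF alone, and on 2 arrays in serum, where all 10 were higher than in serum alone, by 0.33 to 1.54. None passed in either setting (limma), with an unadjusted p under 0.05 for 1 and 4 members. Over all genes 0.728% were higher and 1.08% lower with EGF, and 0.87% higher and 0.915% lower in serum. In serum the largest differences were those of IFI44L, at 7.42 and 8.56 with gefitinib, and RSAD2, at 10.75 and 11.49. MX1, IFIT1, IFIT3, IFI6 and IFIH1 were higher on both gefitinib arrays than on any serum array, 5 of 10 beside 16.5% of all genes. Only 2 of the serum arrays shared the date of the gefitinib arrays. The authors' correction for date had given the other 3 the same mean as those 2.

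**Figure D5:**
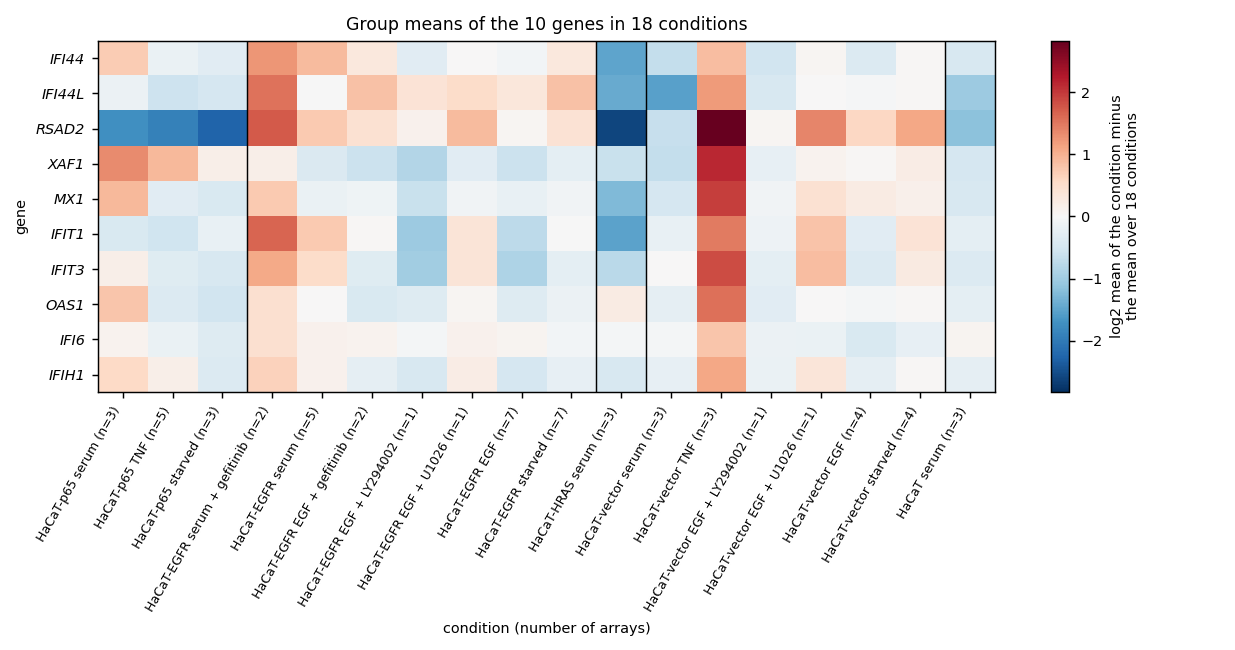
Group means of the 10 genes in the 18 conditions, each gene centred on its mean over the conditions, in log2 units. Genes run down and conditions across. HaCaT-vector with TNF-α has the highest mean for 7 of the 10 genes, HaCaT-EGFR in serum with gefitinib for IFI44, IFI44L and IFIT1, and HaCaT-HRAS in serum the lowest for IFI44, MX1, IFIT1 and RSAD2. Conditions hold 1 to 7 arrays. Serum means of HaCaT-p65, HaCaT-HRAS, HaCaT-vector and HaCaT come from 1 date, tied to the others only through HaCaT-EGFR in serum. Their rank among all conditions rests on that link.

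The other 8 single-symbol probe sets, of 6 of these genes, were fitted among all 41097. In HaCaT-p65 against HaCaT-vector in serum, the other probe sets of IFI44 (2.17), OAS1 (1.20) and RSAD2 (-1.21) and the second of the XAF1 probe sets (1.17) passed in the direction of the brightest probe set of their gene. That of IFIT3 (0.18) did not, nor did the brighter (0.48) and the dimmer (0.04) of the pair left for IFIH1, or the third of the XAF1 probe sets (-0.10), the dimmest of the 18 with at most 4.52 on any array. The other RSAD2 probe set also passed in HaCaT-EGFR (1.42) and in HaCaT-HRAS (-1.89), and that of IFI44 in HaCaT-EGFR (1.96).

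With TNF-α in HaCaT-vector, the second XAF1 probe set (1.95), the brighter of the IFIH1 pair (1.76) and the other probe sets of IFIT3 (1.89), RSAD2 (1.61) and OAS1 (1.50) passed, while that of IFI44 (1.41), the dimmer of the IFIH1 pair (1.36) and the third XAF1 probe set (0.65) were higher on every array without passing. In HaCaT-p65 none of the 8 passed with TNF-α, with changes of 0.05 to 0.89 and overlapping arrays for all. Their differences between the lines in that response were all negative, from -1.72 for IFIT3 to -0.36 for the third XAF1 probe set, and none passed (limma).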

How the data were processed

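Log2 expression values of 54675 probe sets on 58 arrays were used as the authors deposited them: normalized with fRMA, fitted for condition and processing date with limma (version not stated), and with the date coefficients subtracted. A refit with date terms gave none above 1.17e-08. The platform annotation named 1 gene for 41097 probe sets, several for 1801 and no gene for 11777. Entrez IDs of 41043 single-gene probe sets matched RefSeq, and 0 symbols changed.

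The single-gene probe set with the highest mean stood for each of 19775 genes. limma 3.58.1 (R 4.3.3) fitted 18 conditions and 6 dates to all arrays, with 35 residual degrees of freedom, and p-values were adjusted over all genes by Benjamini-Hochberg at 0.05. Arrays of a group are given in the order of their replicate numbers, 4 h before 8 h. For HaCaT-EGFR in serum, the 3 arrays of the date shared with HaCaT-vector come before the 2 of the other date. Genes named were the 10 members with all their probe sets, up to 5 genes per list and comparison that passed with the largest change, pathway members whose level is described, and the 10 most alike in profile. ISG15 and IFIT2 values outside this rule were chosen after they were seen. Members and lists were chosen with earlier results of these data known. The fit was tested on simulated data with known changes. Promoters came from the RefSeq table of GRCh38.p14, searched with Python 3.11.15. Alternatives covered the probe set, scaling, a filter on means under 5, date, samples fitted, array weights, replicate numbers, time and each array left out. The number of arrays limits the precision.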

Additional observations from a re-analysis of the deposited data

How the results depend on the processing

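Counts of the 10 genes that passed stayed within 1.5 times the main count in most settings. The exceptions were HaCaT-EGFR against HaCaT-vector with the serum arrays of 1 date alone, a setting chosen after seeing the data (1 in place of 3), HaCaT-HRAS against HaCaT-vector with the arrays of those groups alone (6 in place of 2) or with array weights (6), and the difference in TNF-α response with array weights (2 in place of 0). The cause was not tested. Leaving out 1 array at a time gave 2 to 6 for HaCaT-p65 and 2 to 3 for HaCaT-EGFR against HaCaT-vector in serum, 2 throughout for HaCaT-HRAS, 0 throughout for HaCaT-vector against HaCaT, 0 to 1 for TNF-α in HaCaT-p65, 3 to 7 for TNF-α in HaCaT-vector, 0 to 3 for their difference and 1 throughout for starved HaCaT-p65 against HaCaT-vector. No change of a member that passed turned direction in any setting. The replicate number as a block within date changed no call, with counts of 6, 3, 2, 0, 0, 6, 0 and 1 in that order. Same-numbered arrays correlated by -0.19 to 0.59 (median 0.24, with 22 of 30 pairs over 0.1), against a median of -0.17 and 13 of 60 over 0.1 for different numbers. Since not every pair was over 0.1 and the labels tie no number to a shared culture or day, the numbers were not taken to pair the arrays. The comparison of starved lines could not be fitted with its own arrays alone, since they share no date. Of 60 gene and group pairs in groups of 4 to 7 arrays none held an array standing apart by Dixon's criterion, and groups of 3, starved HaCaT-p65 and HaCaT among them, were not tested.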
